A study of Mus musculus with 12 samples.

Results

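TH2 control cells were compared with TH1 control cells, 3 RNA-seq libraries against 3, to describe the genes that set these helper T cell subsets apart after 5 days of culture. Naive CD4+ T cells were purified from the spleen of control mice on the C57BL/6 background, which carried the Cd4 CreERT2 allele (a drug-inducible Cre recombinase driven by the Cd4 promoter). In the conditions the study describes, TH2 control cells were cultured with antibodies to CD3 and CD28, IL-2, IL-4 and an antibody to interferon-γ, and TH1 control cells with the same antibodies to CD3 and CD28, IL-2, IL-12 and an antibody to IL-4. Live CD4+ cells were sorted from both on day 5. The drug treatment of the sequenced control cultures is not stated in the labels or the methods of the study, and the other 6 libraries of the series came from Itgav knockout (KO) cells of both subsets. Replicates carry only a number in the labels, without the mouse or the culture they came from. The p-values rest on the spread between libraries within a group, pooled over all 12 libraries, KO included. This spread may be technical.

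Helper T cells take on subset programs under the cytokines they meet during activation. IL-12, acting through the transcription factor STAT4, and interferon-γ raise T-bet (gene Tbx21), which directs TH1 cells to make interferon-γ against intracellular microbes. IL-4 acts through STAT6 to raise GATA3, which directs TH2 cells to make the cytokines of allergy and of immunity to worms (IL-4, IL-5, IL-13), whose genes are neighbours.

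Genes were described where the level reached 10 CPM (a gene's reads scaled to a common total per library) in at least 3 of the 6 control libraries, which held for 8438 of 26202 gene symbols. Of these, 6712 reached 10 CPM in all 6 libraries. A further 151 did so in all 3 TH2 and in no TH1 control library, and 139 in all 3 TH1 and in no TH2 control library. Genes of both kinds had to differ between the groups to be there, so their calls are a description. Counts and medians of gene lists that hold such genes share this limit. Levels below are in CPM in libraries 1, 2 and 3 of a group, and differences are log2(CPM + 1) of TH2 minus TH1 control cells with their standard error, a scale that understates the difference of low genes. "Called" or "passed" means an adjusted p below 0.05 (limma, two-sided, adjusted over all 8438 genes). CPM were compared between groups and never between genes, whose lengths differ.

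By this test 1572 genes (18.6% of those tested) were called, 737 (8.73%) higher and 835 (9.9%) lower in TH2 control cells, and 2541 had an unadjusted p below 0.05. The groups did not overlap for 2878 genes (34.1%), among them 725 of the 737 called higher and 820 of the 835 called lower. Lack of overlap in a called gene, where given below, therefore adds little to its call. Among the genes called higher, 417 differed by 2-fold or more on this scale, 158 by 4-fold and 47 by 16-fold. Among those called lower the numbers were 519, 194 and 43. The median over all genes tested was −0.01. Genes called higher in TH2 cells took up 18.9% to 23.4% of the reads of a TH2 control library and 9.63% to 10.4% of those of a TH1 control library, and genes called lower took up 9.83% to 10.6% in TH2 and 21.5% to 22.2% in TH1 control libraries. With Rn45s, a ribosomal RNA precursor that took up 5.84% of the reads of TH2 control 1, left out of the genes called higher, their share was 17.0% to 17.7% in TH2 and 8.52% to 9.07% in TH1 control libraries. In RNA of sorted cells in bulk, fewer cells that make a transcript and less of it per cell cannot be told apart.

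**Figure D1:**
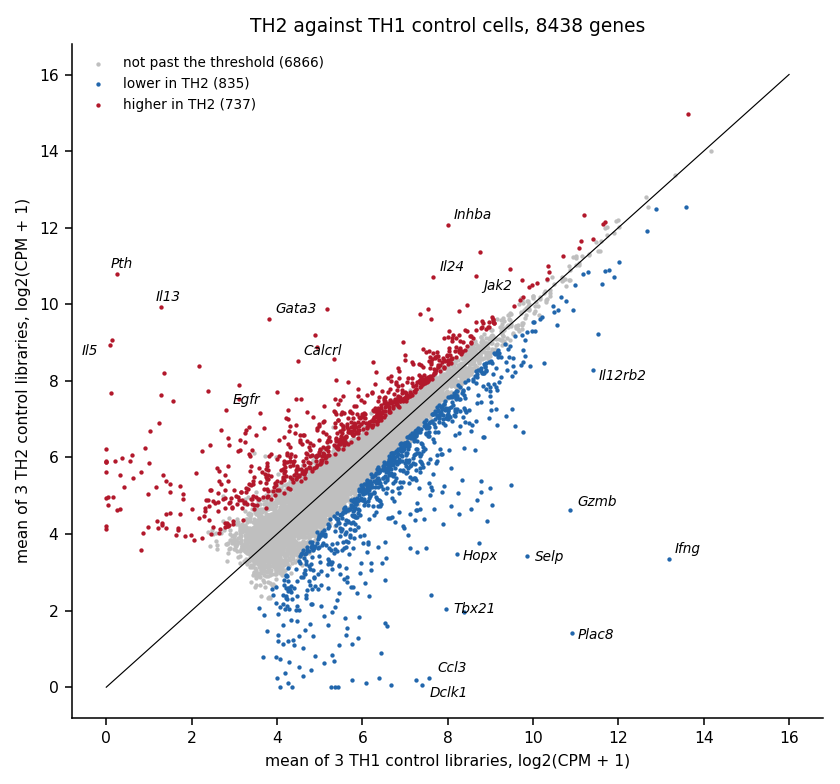
Each point is 1 of 8438 genes, at the log2 of its mean CPM + 1 over 3 TH2 control libraries (y) and 3 TH1 control libraries (x), red where called higher and blue where called lower in TH2 cells. Pth and Il5 lie near 0 on the TH1 axis, and Ccl3 and Dclk1 near 0 on the TH2 axis.

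The libraries held 7843579 to 13312235 reads in genes, so a level of 0 allows a true level of up to 3 reads, 0.225 to 0.382 CPM depending on the library (counting error only). TH2 control libraries were less alike than TH1 control libraries, with a median SD within the group of 0.347 against 0.215 on the log2 scale, and 476 against 53 genes with an SD above 1. TH2 control 1 held 58370 CPM of Rn45s, the 45S pre-ribosomal RNA, against 19500 and 18950 CPM in the other TH2 control libraries and 11100 to 14880 CPM in TH1 control cells. Defining markers of CD4+ T cells were present: Cd4 stood at 3384, 3380.5 and 2851 CPM in TH2 against 2118, 2525 and 2043 CPM in TH1 control cells, and Cd3e at 377, 332 and 336 against 311, 302 and 322 CPM. Of 10 T cell identity genes tested, Cd4 was called higher (log2 0.53), and Thy1 (log2 −0.71), Cd28 (log2 −0.71), Cd3d (log2 −0.55) and Cd3g (log2 −0.92) lower. Without a variance trend Cd4 (adjusted p = 0.0506) and Cd28 (adjusted p = 0.0642) were lost, and Cd28 also without a filter (adjusted p = 0.0535). Ncr1 (NK cells), Lyz2 and Csf1r (myeloid cells), Cpa3, Mcpt8 and Fcer1a (mast cells and basophils), Epx (eosinophils) and Hba-a1 (red cells) were listed at 0 in all 6. Summed over 6 markers of each subset, TH2 markers reached 2070 to 3176 CPM in TH2 against 13.9 to 23.4 CPM in TH1 control cells, and TH1 markers 299.7 to 427 against 11399 to 13634 CPM.

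Promoters of genes from both programs are shown because GATA3 acts on the TH2 cytokine genes, and factors activated by interferons on the genes they induce. Each line is the 250 bases before the RefSeq start (for Il4 and Gbp5 a start inside the longer GENCODE span, and for Gbp2 a start just inside it), on GRCm38.p6, 5′ to 3′ on the gene's own strand. In the first group, capitals mark a GATA motif (the letters GATA with A or T before and A or G after them, on either strand). Il4 lies at chr11:53617339-53617588 (minus strand), Il5 at chr11:53720544-53720793 (plus strand) and Il13 at chr11:53634703-53634952 (minus strand).
Il4: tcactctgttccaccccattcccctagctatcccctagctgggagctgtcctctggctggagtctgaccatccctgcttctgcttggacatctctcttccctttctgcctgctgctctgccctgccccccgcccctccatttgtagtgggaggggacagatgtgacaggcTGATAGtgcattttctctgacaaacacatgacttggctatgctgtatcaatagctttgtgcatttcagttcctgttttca
Il5: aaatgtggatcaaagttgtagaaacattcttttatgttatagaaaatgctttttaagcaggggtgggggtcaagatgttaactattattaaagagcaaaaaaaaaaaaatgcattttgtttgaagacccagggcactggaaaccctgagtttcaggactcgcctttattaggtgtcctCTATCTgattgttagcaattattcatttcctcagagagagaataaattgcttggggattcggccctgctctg
Il13: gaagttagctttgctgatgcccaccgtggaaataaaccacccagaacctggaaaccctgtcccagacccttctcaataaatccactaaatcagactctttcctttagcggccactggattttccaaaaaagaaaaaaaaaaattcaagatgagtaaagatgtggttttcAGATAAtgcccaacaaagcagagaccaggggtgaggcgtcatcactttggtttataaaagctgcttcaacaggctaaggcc
Each window held 1 such motif, and its first base lay 80 bases before the start of Il4, 72 before that of Il5 and 81 before that of Il13. In the second group, capitals mark a STAT GAS motif (TTCNNNGAA) for Ifng at chr10:118440796-118441045 (plus strand) and an ISRE core (TTCNNTTTC on either strand) for Gbp2 at chr3:142620413-142620662 (plus strand) and Gbp5 at chr3:142496684-142496933 (plus strand).
Ifng: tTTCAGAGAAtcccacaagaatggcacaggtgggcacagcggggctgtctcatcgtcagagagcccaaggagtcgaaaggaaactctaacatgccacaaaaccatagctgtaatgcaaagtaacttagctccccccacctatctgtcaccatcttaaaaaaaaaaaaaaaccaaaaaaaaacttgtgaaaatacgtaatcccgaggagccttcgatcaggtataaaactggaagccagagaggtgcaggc
Gbp2: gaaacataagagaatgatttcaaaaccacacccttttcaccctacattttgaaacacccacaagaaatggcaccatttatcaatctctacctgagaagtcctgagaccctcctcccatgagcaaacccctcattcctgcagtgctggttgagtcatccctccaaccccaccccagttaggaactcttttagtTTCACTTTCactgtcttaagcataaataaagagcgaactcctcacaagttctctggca
Gbp5: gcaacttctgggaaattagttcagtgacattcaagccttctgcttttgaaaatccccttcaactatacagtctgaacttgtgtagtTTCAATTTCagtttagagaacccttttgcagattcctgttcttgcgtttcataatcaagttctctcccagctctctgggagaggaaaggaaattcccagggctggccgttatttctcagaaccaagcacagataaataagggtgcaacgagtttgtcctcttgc
The GAS motif began 249 bases before the start of Ifng. The ISRE core began 58 bases before the start of Gbp2 and 164 before that of Gbp5. The windows of Ifng, Gbp2 and Gbp5 also held 1 GATA motif each. That of Il4 held 1 ISRE core, and that of Gbp5 held 2 GAS motifs. These further matches are not in capitals, so the 6 windows do not separate the programs by GATA motif. Such matches are common and are no binding sites in themselves. Over 27025 promoters of this length, 27.1% held a GATA motif, 7.18% a GAS motif and 7.16% an ISRE core. The 6875 tested genes with a promoter in RefSeq held GATA motifs in 16.4%, against which the 580 called higher had 17.8% and the 675 called lower 17.9%. For the ISRE core the shares were 5.17% of the genes called higher and 10.4% of those called lower, beside 6.30% of all tested, and for GAS 3.79% and 8.59%, beside 6.01%. The T-box letters TCACACC stood in 2.41% of promoters called higher and 4% of those called lower, beside 2.75%. No test was made of these shares.

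The cytokine genes of the TH2 program were higher in TH2 control cells, with little left over in TH1 cells for most of them. Of 8 TH2 cytokine genes tested, 7 were called higher and none lower, and their median log2 was 6.08 beside −0.01 over all genes. Il4, Il5, Il9, Il13 and Areg reached 10 CPM only in TH2 control libraries. They had to be high there to be tested, so this count and median are a description. Il4, the growth and polarising factor of the subset, stood at 263, 382 and 358 CPM in TH2 control cells, against 5.99, 1.13 and 3.44 CPM in TH1 control cells (difference of 6.36 ± 0.40, adjusted p = 1.63e-10). Il5, which sustains eosinophils, stood at 337, 701 and 576 CPM in TH2 control cells, against 0, 0.225 and 0.0881 CPM in TH1 control cells. Il13, which drives mucus and airway responses, stood at 651, 1229 and 1037 CPM in TH2 control cells, against 0, 0.451 and 3.88 CPM in TH1 control cells. TH2 control 1 was the lowest of its group for all of these, and even that library lay far above every TH1 control library. The same library was the lowest for Il10, Areg and Pth but not for Il9 or Il24, and over the 737 genes called higher it was the lowest of its group in 276 and the highest in 245. With the high Rn45s of this library taken out of the totals, an alternative chosen after seeing the data, the difference was 6.39 for Il4, 8.92 for Il5 and 8.98 for Il13.

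Other cytokines of the TH2 side differed in how much TH1 cells still made. Il9, a mast cell and mucosal factor, was at 202, 135 and 273 CPM in TH2 control cells, against 0.127, 0 and 0.0881 CPM in TH1 control cells (difference of 7.52 ± 0.38, adjusted p = 4.34e-12). Areg, the epidermal growth factor family member amphiregulin, was at 58.04, 152 and 99.2 CPM in TH2 against 2.68, 0.3 and 0.0881 CPM in TH1 control cells (difference of 5.80 ± 0.64, adjusted p = 7.12e-07). Il10, which restrains inflammation, was present in both subsets at 135, 216 and 197 CPM in TH2 against 46.5, 35.98 and 38.6 CPM in TH1 control cells (difference of 2.13 ± 0.26, adjusted p = 2.67e-06), and so was Il24, a relative of IL-10, at 1726, 1525 and 1772 CPM in TH2 against 223, 219 and 164 CPM in TH1 control cells (difference of 3.05 ± 0.17, adjusted p = 1.97e-11). No library of one group overlapped the other for any of these. Csf2, encoding GM-CSF, was the tested member that did not pass, at 13.1, 24.98 and 35.5 CPM in TH2 against 20.9, 18.1 and 35.2 CPM in TH1 control cells, with the groups interleaved (log2 −0.06 ± 0.49). Il3 missed the level for testing and was at 0, 0 and 2.85 CPM in TH2 against 7.39, 11.5 and 13.04 CPM in TH1 control cells, the opposite order to Il5. Il21, a cytokine of follicular help, was called higher in TH2 cells at 283, 326 and 353 CPM in TH2 against 197, 174 and 199.9 CPM in TH1 control cells (difference of 0.74 ± 0.17, adjusted p = 0.00374).

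**Figure D2:**
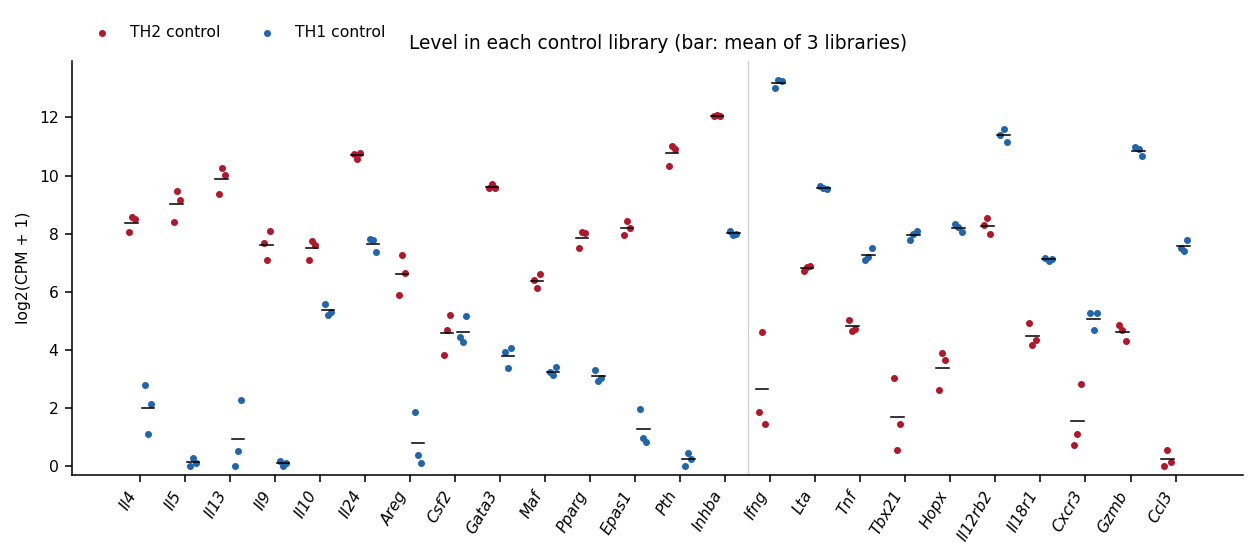
Level of 24 genes as log2(CPM + 1) in each of 3 TH2 control (red, left) and 3 TH1 control libraries (blue, right), with a bar at the mean. Il5, Il9 and Pth are near 0 in TH1 cells, Ifng and Tbx21 are low in TH2 cells, and Csf2 is the gene whose groups overlap.

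The TH2 cytokine genes lie together on chromosome 11, and the genes between and before them were also higher. In map order on GRCm38, Kif3a at chr11:53567379-53601967 encodes a kinesin motor, Il4 is at chr11:53602982-53618669, Il13 at chr11:53631324-53634702, Rad50, a DNA repair gene whose introns hold the locus control region of these cytokines, at chr11:53649519-53707319, and Il5 at chr11:53720794-53725106. Rad50 stood at 647, 1014 and 1032 CPM in TH2 control cells, against 352, 294 and 272 CPM in TH1 control cells (difference of 1.53 ± 0.18, adjusted p = 1.42e-06). Kif3a stood at 155, 186 and 202 CPM in TH2 against 51.5, 47.9 and 31.2 CPM in TH1 control cells (difference of 2.05 ± 0.23, adjusted p = 8.27e-07). Both separated the groups completely, with TH2 the higher. Beyond Il5, Irf1 at chr11:53770014-53778374 encodes an interferon-induced transcription factor and went the other way, at 11.99, 46.9 and 17.4 CPM in TH2 against 85.3, 61.97 and 97 CPM in TH1 control cells (difference of −1.85 ± 0.36, adjusted p = 0.000763). The annotated spans of these genes do not overlap, but the counting is not stated to use strand, so reads that run past the end of one gene into another cannot be told apart from its own.

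Il10 and Il24 form a second such pair on chromosome 1, at chr1:131019845-131024974 and chr1:130882074-130887454. Of the genes between and beside them, Il19 and Il20 were at or near 0 in both groups, Fcmr (an IgM receptor) did not pass at 38.4, 50.1 and 46.4 CPM in TH2 against 42.7, 55.7 and 53.8 CPM in TH1 control cells, and Mapkapk2, a stress kinase, was called higher (difference of 0.74 ± 0.15, adjusted p = 0.000788).

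Transcription factors of the TH2 program were called higher for 7 of 16 tested and lower for none, or for 1 without TH2 control 1 (median 0.38). Gata3, the factor that defines the subset, stood at 768, 831 and 761 CPM in TH2 control cells, against 14.2, 9.31 and 15.8 CPM in TH1 control cells (difference of 5.84 ± 0.21, adjusted p = 2.33e-14). Maf, which acts on Il4, stood at 83.5, 68.2 and 97.2 CPM in TH2 against 8.41, 7.74 and 9.52 CPM in TH1 control cells (difference of 3.13 ± 0.29, adjusted p = 6.14e-08). Pparg, a lipid-sensing nuclear receptor of type-2 lymphocytes, stood at 179, 267 and 262 CPM in TH2 against 8.92, 6.69 and 7.14 CPM in TH1 control cells (difference of 4.77 ± 0.25, adjusted p = 6.59e-12). Epas1, encoding the oxygen-regulated factor HIF-2α, stood at 247, 348 and 291 CPM in TH2 against 2.93, 0.977 and 0.793 CPM in TH1 control cells, and Batf, an AP-1 factor, at 439, 535 and 569 CPM in TH2 against 108, 134 and 128 CPM in TH1 control cells. In each of these 5 genes the lowest TH2 library lay above the highest TH1 library. Gfi1 (log2 1.16), which supports TH2 growth, and Rbpj (log2 1.03), the nuclear partner of Notch, were also called. Stat6, which carries the IL-4 signal, did not pass, at 48.6, 65.4 and 94.5 CPM in TH2 against 55.1, 47.2 and 64.1 CPM in TH1 control cells (log2 0.28 ± 0.28), nor did Irf4 (log2 0.19), Junb (log2 −0.21) or Nfil3 (log2 0.34).

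Receptors followed the same split. Of 8 TH2 receptor genes tested, 6 were higher and 1 lower. Ccr8 was at 44.8, 28.2 and 17.96 CPM in TH2 control cells, against 0.255, 0 and 0.0881 CPM in TH1 control cells (difference of 4.73 ± 0.53, adjusted p = 8.27e-07). Ccr4 was at 245, 181 and 198 CPM in TH2 against 15.04, 11.3 and 18.6 CPM in TH1 control cells (difference of 3.72 ± 0.23, adjusted p = 8.22e-11). These chemokine receptors guide TH2 cells into skin and lung, and neither overlapped between the groups. Cysltr1, a leukotriene receptor (log2 1.82), Tnfrsf8, which encodes CD30 (log2 1.22), and the IL-4 receptor chain gene Il4ra (difference of 0.52 ± 0.12, adjusted p = 0.0024) were higher by less. Ptgir, the prostacyclin receptor gene (log2 0.83), was lost without TH1 control 1 or TH1 control 3 (highest adjusted p = 0.0917). Icos, a costimulatory receptor listed with them, was lower in TH2 cells at 133, 54.4 and 86.1 CPM in TH2 against 489, 440.0 and 456 CPM in TH1 control cells (difference of −2.42 ± 0.22, adjusted p = 3.10e-08). Il1rl1, the receptor of IL-33, stayed below the level for testing at 6.9, 5.22 and 1.75 CPM in TH2 against 1.4, 2.78 and 0.176 CPM in TH1 control cells.

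The TH1 side was led by interferon-γ and T-bet. Ifng stood at 2.65, 23.3 and 1.75 CPM in TH2 control cells, against 8190.4, 9985 and 9733 CPM in TH1 control cells (difference of −10.53 ± 0.48, adjusted p = 7.28e-13), with TH2 control 2 the highest of its group and every TH2 library far below every TH1 library. Tbx21 stood at 7.21, 0.454 and 1.75 CPM in TH2 control cells, against 220.3, 253 and 272 CPM in TH1 control cells (difference of −6.28 ± 0.69, adjusted p = 6.61e-07), with TH2 control 1 the highest of its group, so the TH2 libraries did not rank alike for both genes. Of 8 TH1 cytokine genes tested, 4 were lower in TH2 cells and Il21 was higher, with 2 higher without TH2 control 1 (median −1.57). Lta, encoding lymphotoxin-α, was at 105, 116 and 117 CPM in TH2 against 797, 762 and 735 CPM in TH1 control cells (difference of −2.75 ± 0.16, adjusted p = 3.64e-11). Tnf was at 31.5, 24.4 and 25.6 CPM in TH2 against 135, 147 and 182 CPM in TH1 control cells (difference of −2.46 ± 0.31, adjusted p = 4.60e-06). Ltb, the partner of Lta, was lower as well (log2 −2.45), while Il2, the T cell growth factor (log2 1.17), Osm (log2 −0.53) and Csf1 (log2 −0.68) did not pass. Ifng lies at chr10:118441046-118445892. Its cytokine neighbour Il22 was below the level for testing in both groups, at 1.38, 4.66 and 8.54 CPM in TH2 and 1.91, 2.4 and 3.35 CPM in TH1 control cells.

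Of 15 TH1 transcription factor genes tested, 11 were lower and 2 higher in TH2 cells (median −1.53). Hopx, which supports the persistence of TH1 cells, was at 5.09, 13.9 and 11.5 CPM in TH2 control cells, against 323, 297 and 267 CPM in TH1 control cells (difference of −4.83 ± 0.28, adjusted p = 3.14e-11). Irf8, an interferon-induced factor, was at 15.1, 20.3 and 30.8 CPM in TH2 against 286, 313 and 329 CPM in TH1 control cells (difference of −3.80 ± 0.24, adjusted p = 1.15e-10). Prdm1, encoding the effector regulator Blimp-1, was at 1.49, 2.5 and 9.53 CPM in TH2 against 66.9, 46.9 and 59.8 CPM in TH1 control cells (difference of −3.69 ± 0.46, adjusted p = 3.50e-06). None of these overlapped. Stat4 (difference of −1.72 ± 0.19, adjusted p = 6.34e-07), which carries the IL-12 signal, and Runx3 (difference of −1.33 ± 0.20, adjusted p = 5.47e-05), a partner of T-bet, were lower by less. Eomes, the relative of T-bet, was listed at 0 in all TH2 control libraries and at 6.5, 4.21 and 4.05 CPM in TH1 control cells, below the level for testing. Id2, an inhibitor of E proteins, was higher in TH2 cells at 401, 439.6 and 528 CPM in TH2 against 169, 163 and 181 CPM in TH1 control cells (difference of 1.40 ± 0.18, adjusted p = 5.71e-06), and so was Ets1 (log2 0.90).

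Receptors by which TH1 cells are driven and recruited were lower in TH2 cells for 9 of 13 tested and higher for 1, or for 2 without TH2 control 1 (median −2.62). Il12rb2, the signalling chain for IL-12, was at 315, 369 and 251 CPM in TH2 control cells, against 2685, 3137 and 2282 CPM in TH1 control cells (difference of −3.12 ± 0.14, adjusted p = 6.28e-13). Il12rb1, its partner chain, was at 135, 175 and 137 CPM in TH2 against 128, 106 and 142 CPM in TH1 control cells and did not pass (log2 0.24 ± 0.18). Cxcr3, a chemokine receptor for inflamed tissue, was at 0.637, 1.14 and 6.13 CPM in TH2 against 37.4, 24.8 and 37.7 CPM in TH1 control cells (difference of −3.53 ± 0.52, adjusted p = 3.10e-05). The chains of the interferon-γ receptor, named here after their values were seen, went opposite ways. Ifngr1, which binds the cytokine, was at 23.8, 23.4 and 23.98 CPM in TH2 against 142, 182 and 133 CPM in TH1 control cells (difference of −2.62 ± 0.23, adjusted p = 2.84e-08). Ifngr2, which completes the receptor, was at 73.7, 58.03 and 70.2 CPM in TH2 against 16.2, 14.05 and 10.4 CPM in TH1 control cells (difference of 2.25 ± 0.29, adjusted p = 5.30e-06). Havcr2, the gene of TIM-3, an inhibitory receptor, was at 16.02, 9.31 and 26.9 CPM in TH2 against 119, 134 and 113 CPM in TH1 control cells (difference of −2.86 ± 0.42, adjusted p = 3.10e-05).

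The IL-18 receptor genes sit beside the IL-33 receptor gene on chromosome 1. Il18r1 at chr1:40465552-40500854 was at 29.5, 16.8 and 19.5 CPM in TH2 against 141, 133 and 140.3 CPM in TH1 control cells (difference of −2.64 ± 0.35, adjusted p = 9.00e-06), and Il18rap at chr1:40515362-40551705 was at 0, 0.908 and 2.52 CPM in TH2 against 16.3, 16.2 and 27.8 CPM in TH1 control cells (difference of −3.44 ± 0.55, adjusted p = 9.24e-05). Il1rl1 at chr1:40429570-40465415 ends just before Il18r1 begins. Il1r2, a decoy receptor of IL-1 in the same cluster, was called lower (log2 −0.82) but lost without TH2 control 1, TH1 control 1 or TH1 control 2 (highest adjusted p = 0.108).

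**Figure D3:**
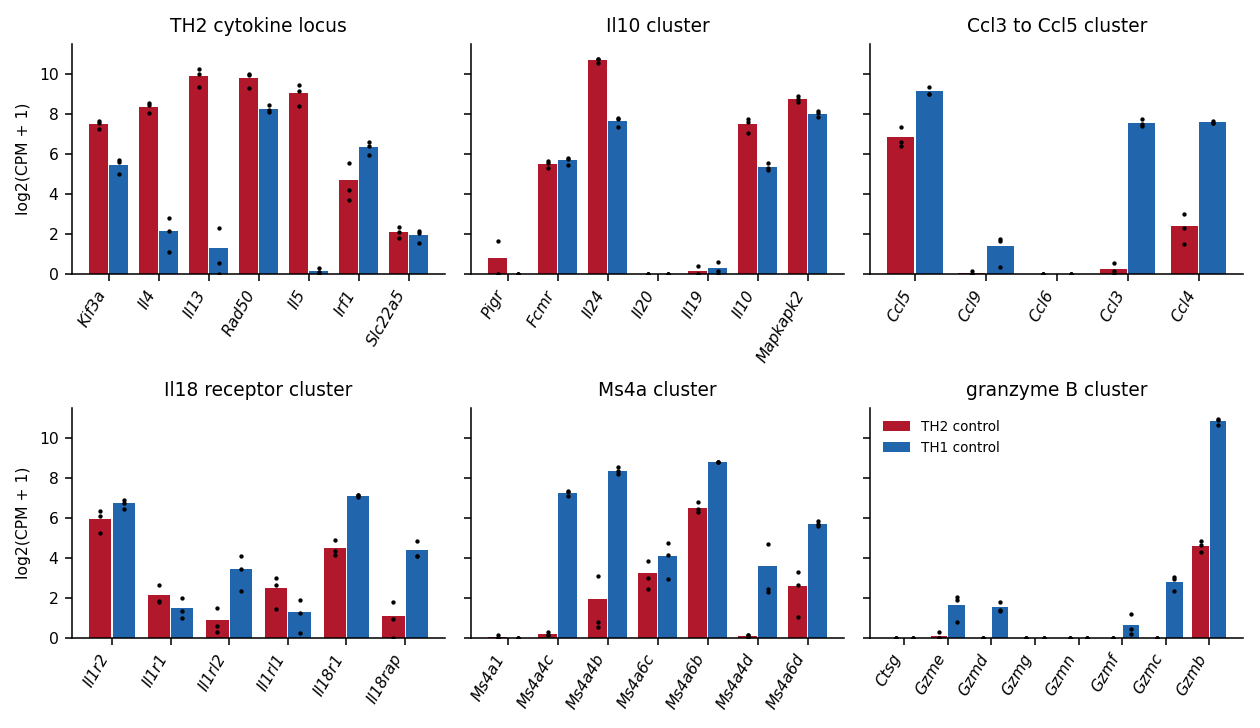
Genes of 6 loci in map order, with bars at the log2 of mean CPM + 1 over 3 TH2 control (red, left) and 3 TH1 control libraries (blue, right) and dots for single libraries. Kif3a, Il4, Il13, Rad50 and Il5 are all higher in TH2 cells, and Ccl3, Ccl4, Ccl5 and Gzmb are all lower.

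Of 16 T cell chemokine genes listed, 4 were tested, and all 4 were lower in TH2 cells. Ccl3, Ccl4 and Cxcl10 reached 10 CPM only in TH1 control libraries. They had to be high there to be tested, so their calls are a description. Ccl3 at chr11:83647844-83649355 was at 0, 0.454 and 0.11 CPM in TH2 control cells, against 181, 169 and 217 CPM in TH1 control cells. Ccl4 beside it was at 4.03, 7.15 and 1.86 CPM in TH2 against 188, 206 and 188 CPM in TH1 control cells (difference of −5.31 ± 0.39, adjusted p = 1.46e-09). Ccl5 in the same cluster was at 164, 83.3 and 97.7 CPM in TH2 against 511, 523 and 665 CPM in TH1 control cells (difference of −2.34 ± 0.21, adjusted p = 4.20e-08). These encode chemokines that attract T cells and monocytes, and of the 3 the difference of Ccl5 was the smallest. Cxcl10, a ligand of CXCR3, was at 0, 0 and 1.64 CPM in TH2 against 18.6, 20.8 and 60.2 CPM in TH1 control cells (difference of −4.42 ± 0.78, adjusted p = 0.000257).

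Of 12 cytotoxic granule genes tested, 7 were lower and 3 higher in TH2 cells. Gzmb, encoding the protease granzyme B, was at 27.9, 24.6 and 18.6 CPM in TH2 control cells, against 2018, 1928 and 1635 CPM in TH1 control cells (difference of −6.25 ± 0.18, adjusted p = 7.26e-16). Nkg7, a granule membrane protein, was at 21.96, 25.1 and 10.2 CPM in TH2 against 455, 478 and 508 CPM in TH1 control cells. Fasl, the death ligand, was at 3.29, 3.63 and 2.85 CPM in TH2 against 45.8, 44.9 and 28.99 CPM in TH1 control cells. Serpinb9, the inhibitor of granzyme B, was lower with it (difference of −3.10 ± 0.35, adjusted p = 1.08e-06). Gzma, a second granzyme, went the other way at 10.6, 39.4 and 38 CPM in TH2 against 1.27, 5.63 and 0.441 CPM in TH1 control cells (difference of 3.24 ± 0.67, adjusted p = 0.00131), with the lowest TH2 library still above the highest TH1 library. The other 2 called higher were Cst7, a protease inhibitor of granules (log2 0.75), and Srgn, the granule proteoglycan serglycin (log2 0.31, adjusted p = 0.0423). Srgn was lost when any control library other than TH2 control 1 was left out (highest adjusted p = 0.142). Of the other granzyme genes beside Gzmb on chromosome 14, Gzmc was listed at 0 in all TH2 libraries and at 6.76, 4.13 and 7.31 CPM in TH1 libraries. Near-identical granzyme genes may share reads, which makes their levels uncertain.

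Of 4 NK and CD8 T cell marker genes tested, Klrk1 and Klrd1 were lower in TH2 cells, Gzma was higher as given above, and Cd8b1 was not called. Klrk1, encoding NKG2D, was at 0, 0.227 and 0 CPM in TH2 control cells, against 49.6, 67.6 and 83.3 CPM in TH1 control cells (difference of −5.95 ± 0.43, adjusted p = 1.35e-09). Klrd1, encoding CD94, was listed at 0 in every TH2 control library and at 40.3, 59.3 and 26.6 CPM in TH1 control cells, at least 128-fold lower in TH2 cells when the floor of 3 reads per library is set in their place. Summed over 12 markers of NK and CD8 T cells, the libraries held 26.6 to 51.7 CPM in TH2 and 109 to 161 CPM in TH1 control cells. Of the defining markers, Ncr1 was at 0 in all 6 libraries, Cd8a at 0 in TH2 and at 0.255 to 1.502 CPM in TH1 libraries, and Cd8b1 at 10.1 to 15.9 against 8.41 to 13.6 CPM.

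Genes induced by interferons were lower in TH2 control cells. Of 12 interferon-γ-induced GTPase genes tested, 10 were lower and none higher, and all 12 had negative log2 values (median −2.47). These GTPases attack the vacuoles of intracellular microbes. Gbp5 was at 0.849, 0.568 and 4.6 CPM in TH2 control cells, against 112, 81.1 and 89.2 CPM in TH1 control cells (difference of −5.22 ± 0.47, adjusted p = 3.47e-08). Gbp2 was at 22.2, 28.6 and 34.8 CPM in TH2 against 391, 306 and 532 CPM in TH1 control cells (difference of −3.78 ± 0.22, adjusted p = 3.09e-11). No library of one group reached the other for either. Gbp7 was at 9.23, 56.3 and 12.3 CPM in TH2 against 535, 431 and 605 CPM in TH1 control cells. Iigp1 was at 0, 0.454 and 0.219 CPM in TH2 against 27.4, 12.6 and 30.7 CPM in TH1 control cells. These groups did not overlap either, although TH2 control 2 stood above its group for Gbp7 as it did for Ifng and Irf1. Guanylate-binding protein genes have close copies, and the sharing of reads among them is not stated.

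Of 29 other interferon-stimulated genes tested, 23 were lower and none higher, and all had negative log2 values (median −1.09). Without TH1 control 3 the count was 15. Usp18, which damps type I interferon signalling, was at 7.32, 9.99 and 16.9 CPM in TH2 against 139, 159.8 and 236 CPM in TH1 control cells (difference of −3.89 ± 0.29, adjusted p = 2.76e-09). Isg15, a ubiquitin-like protein, was at 21.6, 29.9 and 21.4 CPM in TH2 against 144, 116 and 225 CPM in TH1 control cells (difference of −2.65 ± 0.26, adjusted p = 1.01e-07). Ifi44 (log2 −4.73), Ifit1 (log2 −3.33) and the nucleic acid sensor gene Zbp1 (log2 −3.17) were lower too. Stat2 (log2 −0.50) and Irf9 (log2 −0.48), partners in the factor through which type I interferons act, did not pass.

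The machinery of antigen presentation on MHC class I was lower for 16 of 19 genes tested, and 1 was higher (median −0.74). Without TH1 control 3 the count lower was 10. The gene called higher was Calr, a chaperone of the endoplasmic reticulum (difference of 0.62 ± 0.17, adjusted p = 0.014), a call lost without TH2 control 2 or TH1 control 1 (highest adjusted p = 0.0747). Nlrc5, the transactivator of these genes, was at 20.9, 33.7 and 17.96 CPM in TH2 control cells, against 212, 210.3 and 186 CPM in TH1 control cells (difference of −3.06 ± 0.25, adjusted p = 7.77e-09). B2m, the light chain of every class I molecule, was at 5994, 5911 and 6003 CPM in TH2 against 11967, 11771 and 12906 CPM in TH1 control cells (difference of −1.03 ± 0.10, adjusted p = 8.77e-08), a difference with almost no spread in TH2 cells. Psmb9, a subunit of the immunoproteasome, was at 89.8, 109 and 143 CPM in TH2 against 342, 352 and 438 CPM in TH1 control cells (difference of −1.74 ± 0.16, adjusted p = 5.79e-08), and Tap2, a chain of the peptide transporter, was lower too (log2 −0.74). Of 6 class II genes tested, 3 were higher and 1 lower. H2-DMa, a chain of the peptide loading factor, was higher in TH2 cells at 101.4, 70.4 and 89.4 CPM in TH2 against 27.8, 35.4 and 29.3 CPM in TH1 control cells. H2-Oa, a chain of its inhibitor, was higher at 58.4, 26.1 and 52.2 CPM in TH2 against 13.6, 9.84 and 14.8 CPM in TH1 control cells. Cd74, the invariant chain, was lower at 18.6, 12.6 and 17.5 CPM in TH2 against 31.2, 59.9 and 72.4 CPM in TH1 control cells (difference of −1.62 ± 0.31, adjusted p = 0.00051). H2-Ab1 was called higher (log2 0.84) but lost without TH2 control 2 or TH1 control 2 (highest adjusted p = 0.0809). Close copies among the H2 genes make their single levels uncertain.

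**Figure D4:**
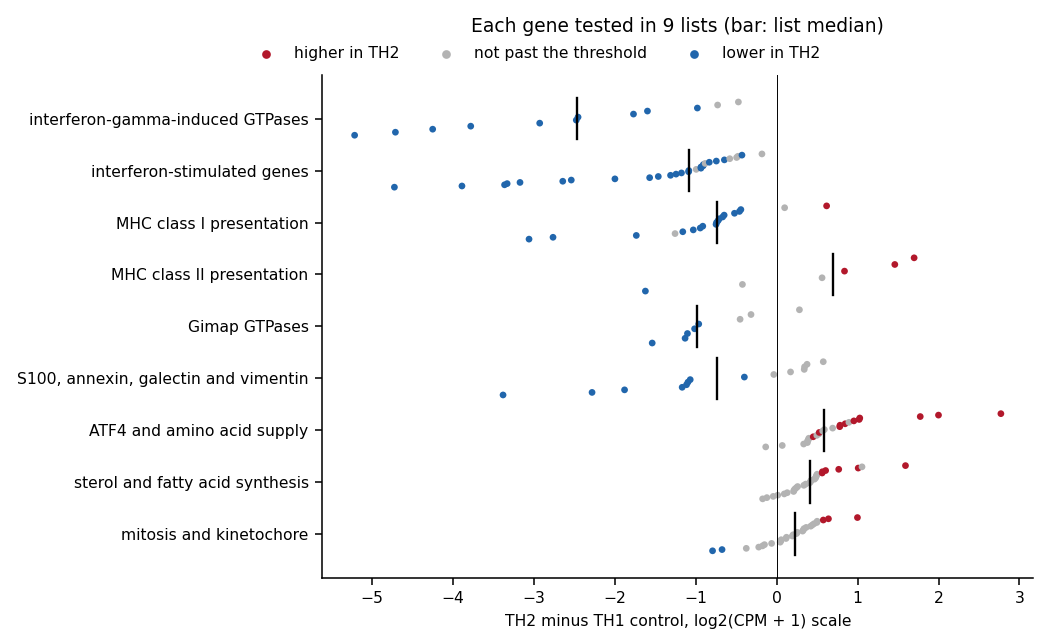
Each dot is a gene tested in 1 of 9 lists, at its log2(CPM + 1) difference of TH2 minus TH1 control cells, red where called higher, blue where called lower and grey otherwise, with a bar at the list's median. All interferon-γ-induced GTPases and interferon-stimulated genes lie left of 0, and MHC class I genes lie left of 0 except Calr and Tapbpl.

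Of 10 genes tested from a list of the Ms4a family, Plac8 and Ly6, 9 were lower and none higher in TH2 cells (median −3.74). The list was chosen with earlier results of these data known, so this count and median are a description. Plac8, Ms4a4b, Ms4a4c and Ly6c2 also reached 10 CPM only in TH1 control libraries. Plac8 was at 0.743, 0.681 and 3.61 CPM in TH2 control cells, against 1952, 1791 and 2059.8 CPM in TH1 control cells. Ms4a4b, which modulates T cell costimulation, was at 7.53, 0.454 and 0.767 CPM in TH2 against 329, 298 and 371 CPM in TH1 control cells. Its neighbour Ms4a4c was at 0.106, 0.114 and 0.219 CPM in TH2 against 156, 138 and 162 CPM in TH1 control cells. In the same cluster on chromosome 19, Ms4a6b was lower as well, at 111, 78.01 and 85.97 CPM in TH2 against 446, 454 and 454 CPM in TH1 control cells (difference of −2.30 ± 0.24, adjusted p = 2.45e-07). Ly6c1 (log2 −4.09) and Ly6c2 (log2 −6.10), near-identical genes of a surface antigen of memory and TH1 cells, were lower, and their reads may be shared. Of all genes called lower, Plac8 had the second largest difference after Ifng.

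Adhesion and homing genes were split. Selp, encoding P-selectin, an adhesion receptor best known from platelets and endothelium, was at 15.9, 0.681 and 12.9 CPM in TH2 control cells, against 1005, 850.4 and 924 CPM in TH1 control cells (difference of −6.98 ± 0.51, adjusted p = 1.71e-09). Ccr7, a chemokine receptor of lymph node homing, was at 386, 322 and 359 CPM in TH2 against 1169, 1233 and 1289.8 CPM in TH1 control cells (difference of −1.79 ± 0.12, adjusted p = 5.86e-10). St6gal1, a sialyltransferase, went the other way at 103, 75.1 and 90.5 CPM in TH2 against 8.16, 6.08 and 4.32 CPM in TH1 control cells (difference of 3.68 ± 0.30, adjusted p = 8.19e-09). Of 11 integrin chains tested, 3 were higher and 2 lower in TH2 cells. Itgb3, encoding β3, had the largest difference among them, at 135, 64.7 and 84.98 CPM in TH2 against 9.69, 13.9 and 7.67 CPM in TH1 control cells. Itgal, the αL chain of LFA-1, was lower at 362, 318 and 328 CPM in TH2 against 723, 838 and 659 CPM in TH1 control cells. Itga4, the α4 chain, was lower at 20.6, 40.7 and 28.3 CPM in TH2 against 104, 119.7 and 85.8 CPM in TH1 control cells. The groups did not overlap for any of these chains. Itgav, which pairs with β3, did not pass at 249.5, 195 and 313 CPM in TH2 against 227, 228 and 154 CPM in TH1 control cells (log2 0.31 ± 0.25). Itgb5 (log2 1.79) was called higher but lost without TH1 control 2 (adjusted p = 0.0564). Itgb7 (log2 0.54) was called higher but lost when any control library other than TH2 control 3 was left out (highest adjusted p = 0.16).

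Of 17 regulators of naive and memory cells tested, 7 were lower and 3 higher in TH2 cells (median −0.61). Besides Ccr7, Id3, an inhibitor of E proteins found in memory cells, was lower at 33.1, 50.5 and 41.5 CPM in TH2 against 131, 168 and 155 CPM in TH1 control cells. Foxp1, which keeps naive T cells at rest, was lower at 29.9, 10.6 and 43.1 CPM in TH2 against 115, 113 and 91.6 CPM in TH1 control cells. Il6ra, the IL-6 receptor chain lost on activation, was higher at 122, 167 and 99.8 CPM in TH2 against 16.7, 23.1 and 12.9 CPM in TH1 control cells (difference of 2.82 ± 0.28, adjusted p = 1.29e-07). Of 8 Gimap genes, GTPases of lymphocyte survival that lie together on chromosome 6, 5 were lower and none higher (median −0.99). Gimap4 was at 186, 216 and 184 CPM in TH2 against 440.1, 390.2 and 432 CPM in TH1 control cells, with no overlap. Of 14 S100, annexin, galectin and vimentin genes, 8 were lower and none higher. S100a6, a calcium-binding protein, was at 119, 115 and 168 CPM in TH2 against 498, 703 and 764 CPM in TH1 control cells. Anxa6, a membrane-binding annexin, was at 137, 152 and 169 CPM in TH2 against 522, 585 and 586 CPM in TH1 control cells.

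Of 7 hormone and neuropeptide genes tested, counting their receptor chains, Pth and Calcrl were higher and Calca lower in TH2 cells, and 4 were not called (median 0.20). Pth, which encodes parathyroid hormone, was at 1296, 2079 and 1949 CPM in TH2 control cells, against 0, 0.376 and 0.176 CPM in TH1 control cells (difference of 10.53 ± 0.31, adjusted p = 7.26e-16), the largest difference of any gene called higher. Inhba, the βA subunit of activin A, was at 4235, 4341 and 4245 CPM in TH2 control cells, against 269.8, 246 and 255 CPM in TH1 control cells (difference of 4.05 ± 0.14, adjusted p = 1.50e-14), with little spread within either group. Calcrl, the receptor chain for calcitonin gene-related peptide and adrenomedullin, was at 366, 358 and 369.6 CPM in TH2 against 19.5, 21.5 and 23.1 CPM in TH1 control cells (difference of 4.04 ± 0.28, adjusted p = 5.73e-10). Calca, the gene of that peptide, went the other way at 10.3, 2.5 and 9.09 CPM in TH2 against 65.02, 75.9 and 76.2 CPM in TH1 control cells (difference of −3.31 ± 0.47, adjusted p = 1.79e-05). Both Calcrl and Calca were detected in every control library. The co-receptor genes of Calcrl, Ramp1 (log2 −0.18) and Ramp3 (log2 0.16), did not pass. Egfr, the receptor of amphiregulin, was higher alongside Areg at 116, 178 and 157 CPM in TH2 against 7.39, 6.39 and 4.32 CPM in TH1 control cells (difference of 4.43 ± 0.51, adjusted p = 1.34e-06). Of 13 TGF-β and activin genes, 4 were higher and 1 lower, a count of lower genes that was 2 without TH2 control 3 and 0 without any other control library. Besides Inhba, those higher included the receptor gene Tgfbr1, at 21.9, 29.9 and 25.3 CPM in TH2 against 5.23, 3.61 and 4.05 CPM in TH1 control cells, and its partner Tgfbr2 (log2 0.93).

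Enzymes of steroid and lipid mediators were higher for 3 of 4 tested and lower for none. Cyp11a1, which makes pregnenolone from cholesterol in the first step of steroid synthesis, was at 159, 144 and 120.0 CPM in TH2 control cells, against 12.6, 13.7 and 6.96 CPM in TH1 control cells (difference of 3.59 ± 0.30, adjusted p = 1.25e-08). Akr1c18, which inactivates progesterone, was at 441, 466 and 573 CPM in TH2 against 0, 0 and 0.176 CPM in TH1 control cells. Enpp2, the lysophosphatidic acid-making enzyme autotaxin, was at 257, 119.8 and 210.2 CPM in TH2 against 1.02, 1.13 and 2.2 CPM in TH1 control cells. None of these overlapped between the groups. In a list of Pparg, its partners and lipid uptake, 5 of 13 tested genes were higher and none lower, or 1 lower without TH2 control 1. Besides Pparg itself, its partner Rxra was at 115, 113 and 113 CPM in TH2 against 17.5, 21.7 and 23.3 CPM in TH1 control cells (difference of 2.40 ± 0.25, adjusted p = 3.63e-07). The lipoprotein receptor genes Vldlr (log2 2.0) and Scarb1 (log2 1.42) were higher too. The last was Cpt1a (log2 0.92), lost without TH2 control 3, TH1 control 1 or TH1 control 3 (highest adjusted p = 0.124). Of 28 sterol and fatty acid synthesis genes, 6 were higher and none lower (median 0.41), led by Dhcr7 of the last step to cholesterol (152, 132 and 139 CPM in TH2 against 52.3, 36.1 and 51.5 CPM in TH1 control cells), with 4 to 8 called as single libraries were left out.

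In amino acid supply, all calls were in 1 direction. Of 24 such genes, targets of the stress factor ATF4 among them, 11 were higher and none lower, and 23 of 24 log2 values were positive (median 0.58), with 9 to 12 called as single libraries were left out. Trib3, a target and inhibitor of ATF4 signalling, was at 32.7, 37.2 and 33.2 CPM in TH2 control cells, against 5.35, 2.33 and 5.55 CPM in TH1 control cells (difference of 2.77 ± 0.39, adjusted p = 1.83e-05). Psat1 of serine synthesis was at 313, 428 and 286 CPM in TH2 against 157, 169 and 169.5 CPM in TH1 control cells. Asns, asparagine synthetase, was at 619.8, 492 and 477 CPM in TH2 against 254, 273 and 288 CPM in TH1 control cells. TH2 lay above TH1 in every library for all of these. Slc7a2, a carrier of arginine and lysine, was at 37.9, 71.9 and 64.8 CPM in TH2 control cells and listed at 0 in all TH1 control libraries, at least 200-fold higher against the floor. Atf4 itself was higher by less (difference of 0.53 ± 0.13, adjusted p = 0.00482), a call lost without a variance trend (adjusted p = 0.0520). In glycolysis and hypoxia, 8 of 25 genes tested were higher and 3 lower (median 0.06). The number higher was 5 without TH1 control 3, and the number lower was 1 without TH1 control 1 or TH1 control 3 and 2 without any other control library. The neuronal-type glucose transporter gene Slc2a3 was higher at 193, 131 and 254 CPM in TH2 against 79.9, 65.6 and 31.5 CPM in TH1 control cells. Hk2, a hexokinase, was lower at 202, 344 and 289.9 CPM in TH2 against 696, 809 and 664 CPM in TH1 control cells.

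Signalling genes were called in both directions. Jak2, a kinase of cytokine receptors, was at 1347, 1774 and 1969 CPM in TH2 control cells, against 441, 381 and 387 CPM in TH1 control cells (difference of 2.06 ± 0.14, adjusted p = 6.49e-10). Of 22 JAK-STAT genes, Pim3, a survival kinase (log2 1.13), and Ptpn2, a phosphatase of JAK signals (log2 0.45), were also higher. Stat4, Pim1 (log2 −0.55) and Pim2 (log2 −0.54) were among the 4 lower. Ptpn2 was lost when any control library other than TH2 control 1 was left out (highest adjusted p = 0.15), and Pim2 without TH2 control 1, TH1 control 2 or TH1 control 3 (highest adjusted p = 0.101). Of 31 T cell receptor signalling genes 2 were higher and 9 lower. The higher were Malt1, which links the receptor to NF-κB, at 327, 281 and 359 CPM in TH2 against 119, 124 and 95.1 CPM in TH1 control cells, and the adaptor gene Lcp2 (log2 1.02). Among the lower were the CD3 chain genes Cd3g (log2 −0.92) and Cd3d (log2 −0.55) and the kinase gene Fyn (log2 −1.06). Of 29 activation and immediate early genes 7 were higher and 7 lower. Dusp6, a phosphatase that dampens ERK, was at 386, 587 and 430.3 CPM in TH2 control cells, against 33.8, 24.8 and 29.7 CPM in TH1 control cells (difference of 3.93 ± 0.20, adjusted p = 6.59e-12). Egr2, induced by antigen receptor signals, was higher at 109, 46.6 and 59.1 CPM in TH2 against 9.94, 6.54 and 6.7 CPM in TH1 control cells. Genes induced by the same signals went both ways. Nr4a3, a nuclear receptor, was lower at 22.7, 42.2 and 33.8 CPM in TH2 against 214, 269 and 218 CPM in TH1 control cells. Cd69, a surface marker of recent activation, was lower at 17.1, 1.14 and 18.8 CPM in TH2 against 67.6, 60.6 and 80.3 CPM in TH1 control cells. Rgs2, a brake on G protein signalling, was at 15.8, 21.1 and 70.2 CPM in TH2 against 535, 543 and 449.9 CPM in TH1 control cells (difference of −4.09 ± 0.36, adjusted p = 2.85e-08), with TH2 control 3 above the other TH2 libraries. Among TNF family genes, Tnfsf8, the ligand of CD30, was higher at 239, 221 and 293 CPM in TH2 against 46.9, 45.7 and 55.9 CPM in TH1 control cells, as was its receptor gene Tnfrsf8 above. Cd40lg, the B cell help ligand, was lower at 23.7, 15.6 and 23.2 CPM in TH2 against 97.9, 119 and 89.4 CPM in TH1 control cells.

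Among proliferation genes, list counts moved with single libraries. They are to be read beside the 18.6% of all genes tested that were called. Of 27 DNA replication genes 1 was higher and 3 lower (median −0.06), with 0 to 1 higher and 0 to 3 lower as single libraries were left out, 3 of them lower without TH2 control 2 and at most 1 without any other. Of 28 mitosis and kinetochore genes 3 were higher and 2 lower, and 21 log2 values were positive (median 0.22). Without TH2 control 1, 7 were higher and none lower, and without any other control library 1 or 2 were higher and 0 to 2 lower. Of 16 genes of G1 cyclins, kinases and inhibitors 2 were higher and 3 lower (median −0.24), with 2 to 3 higher and 0 to 3 lower as single libraries were left out. Cdk6, a kinase of entry into the cell cycle, was higher at 998, 1017 and 1006 CPM in TH2 against 353, 364 and 327 CPM in TH1 control cells (difference of 1.53 ± 0.12, adjusted p = 5.59e-09). The cyclin genes Ccnd2 (log2 −0.47) and Ccnd3 (log2 −1.49) were among the lower, and both calls were lost without TH2 control 2 or TH1 control 1. Of 12 Bcl2 family genes tested 3 were lower and none higher (median −0.13), with 1 to 3 lower and 0 to 1 higher as single libraries were left out. Among the lower was the pro-apoptotic Bcl2l11, which encodes BIM, at 31.2, 2.38 and 9.86 CPM in TH2 against 64.3, 60.4 and 56.9 CPM in TH1 control cells (difference of −2.54 ± 0.50, adjusted p = 0.00087). Of 15 p53 target genes tested 3 were higher and 2 lower, and Fas, the death receptor, was among the lower (difference of −1.61 ± 0.38, adjusted p = 0.00389). Of 55 ribosomal protein genes 2 were called, and their log2 values ran from −0.44 to 0.46.

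**Figure D5:**
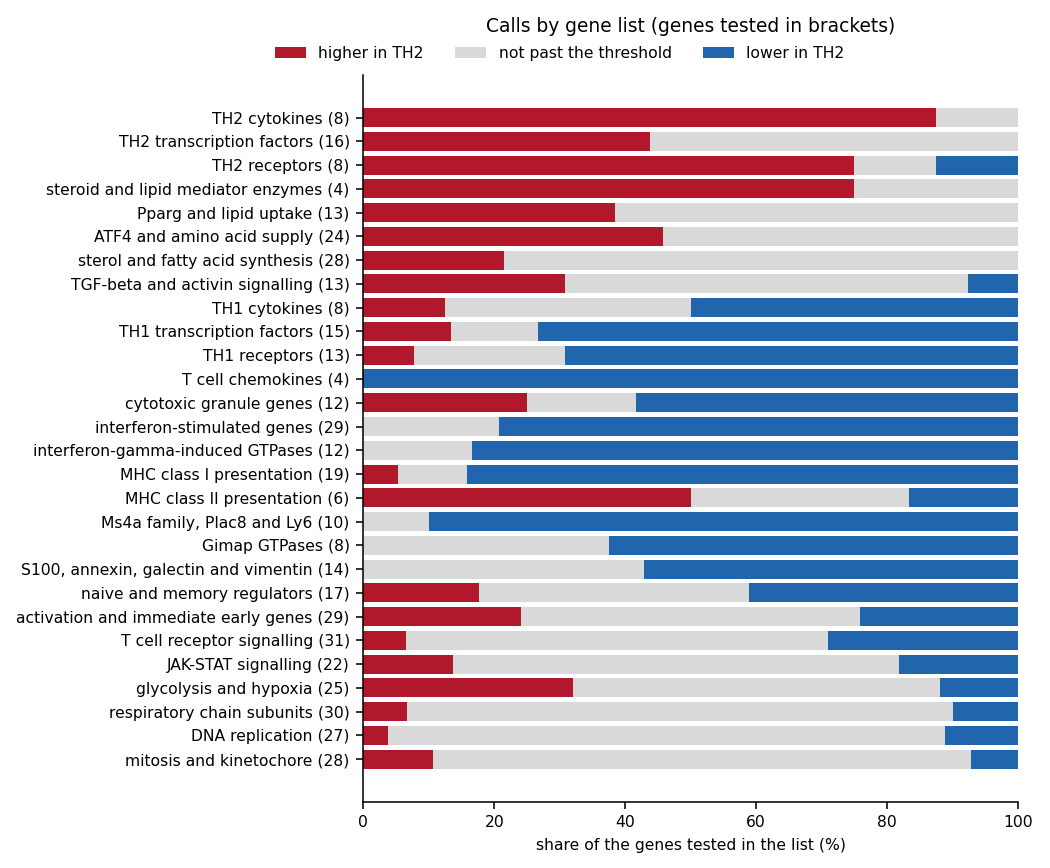
Share of the genes tested in each of 28 lists (number in brackets) that were called higher (red), not called (grey) and called lower (blue) in TH2 against TH1 control cells. Lists of the TH2 program are mostly red or grey, interferon and MHC class I lists mostly blue, and replication, mitosis and respiratory chain lists mostly grey.

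Some genes were close to an on or off state. A set of 22 genes reached 10 CPM in all 3 TH2 control libraries and stayed at or below 1 CPM in all 3 TH1 control libraries, and 19 genes did the opposite. By construction these differ, and those named next were chosen after their values were seen. The TH2 side held Pth, Il5, Il9, Ccr8 and Akr1c18 beside genes better known from other tissues. Adamtsl3, of the extracellular matrix, was at 63.8, 53.4 and 58.2 CPM in TH2 and at 0 in all TH1 control libraries. Olr1, a receptor of oxidised lipoprotein, was at 30.2, 83.3 and 73.2 CPM in TH2 against 0, 0 and 0.881 CPM in TH1 control cells. Syn2, a synaptic vesicle protein, was at 56.9, 39.2 and 49.1 CPM in TH2 and at 0 in all TH1 control libraries. These were even across the TH2 libraries but for Olr1, which was lowest in TH2 control 1. Htr1b, a serotonin receptor, was at 31.1, 36.6 and 40.96 CPM in TH2 against 0.637, 0.3 and 0.0881 CPM in TH1 control cells. P2ry1, an ADP receptor, was at 26.8, 79.03 and 23.4 CPM in TH2 against 0.765, 0.3 and 0.529 CPM in TH1 control cells. Fgf2, a fibroblast growth factor, was at 26.1, 34.7 and 28.3 CPM in TH2 and at 0 in all TH1 control libraries. The TH1 side held Ccl3, Klrk1, Klrd1, Ms4a4c, Ly6c2 and Iigp1 beside others. Dclk1, a kinase of microtubules, was at 0, 0.114 and 0 CPM in TH2 against 168, 178 and 158 CPM in TH1 control cells. Onecut2, a transcription factor of liver and neurons, was at 0, 0.114 and 0.329 CPM in TH2 against 46.4, 36.8 and 76.4 CPM in TH1 control cells. Casr is the calcium-sensing receptor that controls the release of parathyroid hormone in the parathyroid gland, and was at 0.637, 0 and 0.219 CPM in TH2 against 22.6, 12.2 and 16.6 CPM in TH1 control cells, the opposite order to Pth. Sema3b, a secreted semaphorin, was at 0 in all TH2 control libraries and at 40.3, 41.2 and 37.9 CPM in TH1 control cells. Mndal and Ifi211 belong to the interferon-inducible Ifi200 family. Mndal was at 0 in all TH2 control libraries and at 40.2, 22.99 and 48.4 CPM in TH1 control cells. Ifi211 was at 0, 0 and 0.219 CPM in TH2 against 16.8, 13.4 and 24.6 CPM in TH1 control cells. Its relatives share sequence, so the levels in this family are uncertain. The stefin gene Stfa2 was at 56.2, 118 and 44.7 CPM in TH2 and at 0 in TH1 control libraries, at least 251-fold higher against the floor of 3 reads per library, and its close copies make that level uncertain. In the KO libraries 13 of the 22 and 12 of the 19 met the same levels.

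Markers of other helper fates stayed low. Il17a was at 0 in all 6 libraries, Foxp3 at 0 to 0.424 CPM in TH2 and 0 to 0.51 CPM in TH1 control cells, and Bcl6 at 1.25 to 4.27 against 3.61 to 7.65 CPM. Gpr83, a receptor listed with regulatory T cells, was higher in TH2 cells at 35.01, 40.9 and 33.5 CPM in TH2 against 2.04, 0 and 1.67 CPM in TH1 control cells (difference of 4.21 ± 0.49, adjusted p = 1.35e-06). Single markers of other cells that passed were Cd68, a lysosomal protein of myeloid cells (25.4, 12.9 and 31.98 CPM in TH2 against 4.46, 8.79 and 2.11 CPM in TH1 control cells), and Pecam1, which encodes CD31 and is also found on T cells (52.2, 23.2 and 41.1 CPM in TH2 against 6.63, 5.78 and 3.88 CPM in TH1 control cells), both higher in TH2 cells. Summed over 18 myeloid markers the libraries held 13.9 to 38.2 CPM in TH2 and 6.26 to 14.5 CPM in TH1 control cells, and the part of such cells in any difference was not tested.

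The KO libraries gave the subset comparison in separate samples of the same fit. There 2023 of the 8438 genes were called (24.0%). Of the 1572 calls in control cells 1017 were called in the same direction in KO cells (64.7% of the control calls and 50.3% of the KO calls), and 2 in the opposite direction. The difference between the comparisons passed for 39 genes (0.462%), Lta, Il12rb2, Nkg7, Ccr7 and Pth among those named above. That count was 61 without TH2 control 1, 20 without TH2 control 2, 2 without TH1 control 1, 4 without TH1 control 2, 26 without TH1 control 3, 2 without a filter and 1 without a variance trend. Of 240 calls in control cells among the genes chosen for naming, 193 held whichever control library was left out.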

How the data were processed

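RNA of sorted cells was amplified to cDNA and sequenced, and per the submitters' processing notes reads were handled with Trim Galore 0.50, STAR 2.6.0a and DESeq2 1.18.1 on GRCm38. No source used here names the gene counter or the annotation. The deposited table gives CPM to which the authors added 0.0001, and this was subtracted. A second deposited sheet held the same CPM and was not used. Values corresponded to whole reads within 0.1 read in 100% of entries of up to 1000 reads, which gave each library's depth. Genes with at least 10 CPM in at least 3 of the 6 control libraries were tested on log2(CPM + 1) with limma 3.58.1 (R 4.3.3), with a variance trend and the means of 4 groups fitted to all 12 libraries (8 residual and 12.4 prior degrees of freedom). P-values were adjusted by the Benjamini-Hochberg method at 0.05. Members and gene lists were chosen with earlier results of these data known.

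Genes named were a set list of helper cell genes, the 15 largest differences each way (called, at least 20 CPM in the higher group, no overlap, no predicted genes), up to 6 called members of a list and members of 9 loci. The interferon-γ receptor chains, subset-restricted genes and further list members were named after their values were seen. Mitochondrial genes were not analysed here, and a few genes are not reported here. The alternatives were pseudocounts of 0.5 and 5, a filter of 5 CPM, over 12 libraries or none, TMM and quantile scaling, the 6 control libraries alone, no variance trend, a replicate block, each library left out and, chosen after seeing the data, CPM without Rn45s. The fit was tested on simulated data. Promoters came from RefSeq (GRCm38.p6), and gene positions from GENCODE M21 on GRCm38.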

Additional observations from a re-analysis of the deposited data

Results flagged for a closer look

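The difference between subsets differed between KO and control cells for 39 genes, of which 13 had opposite signs in KO and control cells. The 8 below are those of the 39 that had been chosen for naming, and the other 31 are not listed. Their subset difference (TH2 minus TH1, log2 scale) in Itgav KO cells differed from that in control cells by the test of the difference itself (limma, adjusted over all genes tested). Among TH1 genes, Lta was −1.53 in KO and −2.75 in control cells, a difference of 1.221 (adjusted p = 0.0211), and Il12rb2 was −1.99 in KO and −3.12 in control cells, a difference of 1.126 (adjusted p = 0.0205). Nkg7 was −7.20 in KO and −4.67 in control cells, a difference of −2.529 (adjusted p = 0.0235). Of the TH2 genes, Pth was 8.17 in KO and 10.53 in control cells, a difference of −2.364 (adjusted p = 0.0211), and Dusp6 was 2.48 in KO and 3.93 in control cells, a difference of −1.45 (adjusted p = 0.0299). Ccr7 was −0.44 in KO and −1.79 in control cells, a difference of 1.347 (adjusted p = 0.00136), and Rgs2 was −1.16 in KO and −4.09 in control cells, a difference of 2.931 (adjusted p = 0.0205). Id3 was −3.47 in KO and −1.85 in control cells, a difference of −1.617 (adjusted p = 0.0235). These 8 had the same sign in both. Only Ccr7 of the 8 passed without a filter or without TH1 control 1, Pth and Ccr7 passed without TH1 control 2, and none passed without a variance trend. Pth was lost without TH2 control 3, and Pth and Dusp6 without TH2 control 2. No explanation was tested.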

How the results depend on the processing

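The counts of genes called between TH2 and TH1 control cells stayed within 1.5 times under every alternative run, with 1094 to 1591 calls as single libraries were left out and 1295 to 1683 under the other settings, against 1572. No named gene reversed. Over all genes, the count that moved by more than 1.5 times was that of genes whose subset difference differed between KO and control cells, 39 as fitted, and counts of some lists did too, as given beside them. It was 2 without a filter, 1 without a variance trend, 25 with the replicate block over 12 libraries, and 2 to 61 as single libraries were left out. Of 249 values, 26 lost their call without a filter, 28 without a variance trend and 12 to 29 as a library was left out. Deviations of TH2 and TH1 control libraries from their group means correlated at −0.0423 to 0.0267 over all pairs of replicate numbers. Where the numbers were equal the values were 0.0048, 0.0267 and 0.0213. With 3 libraries a group these values cannot tell whether equal numbers share a mouse or a culture. With the number as a block, 1540 genes were called in the fit of 12 libraries and 1399 in that of 6. A count test on the recovered reads was not run. The 3 libraries a group limit the precision, and the wider spread among TH2 control libraries (median SD 0.347, against 0.215 in TH1) enters every test.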
